A study of Mus musculus with 24 samples.

Results

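The unfolded protein and ER stress genes described here are 32 named genes of the unfolded protein response, the reaction of a cell to misfolded protein in the endoplasmic reticulum (ER). They were taken by symbol from the RNA-seq table of mouse class IV oocytes, and the rule that selects them uses no measured value. All 32 were found among the 16572 gene names of the table. They comprise 7 genes of the PERK-ATF4 arm, 3 of the IRE1-XBP1 arm, Atf6, 9 ER chaperones, 5 enzymes of disulphide bond formation and 7 genes of ER-associated degradation.

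The labels give the mice as C57BL/6 Barb, and the methods of the study describe a cross with an SV129 background. Ovaries were taken at an age of 7 days and digested with enzymes, and the oocytes were grown in a culture that held other ovarian cells at its start but no follicles, without drugs. Class IV is the largest size class, with a diameter of 60 to 70 µm in the labels of both conditions, although the methods of the study give a smaller range for class IV in 20% oxygen. Growth to class IV took 9 days in 5% oxygen (IV 5% O2), with the medium changed every 24 h. It took 14 days in 20% oxygen (IV 20% O2), with the medium changed every 48 h. In the study, a larger share of class IV oocytes had dense chromatin around the nucleolus in 5% than in 20% oxygen. The study describes that state as transcriptionally silent. It also reports that oocytes in 5% oxygen began to degenerate after the 9 days. The effects of oxygen, culture time, medium change, chromatin state and any difference in oocyte size cannot be told apart. Oocytes of a condition were pooled for total RNA, which was depleted of ribosomal RNA, and 2 libraries were made per condition. The bisulphite libraries of the study, 20 samples, are not analysed here.

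In the unfolded protein response, misfolded proteins draw the chaperone BiP away from sensors in the ER membrane. The sensor PERK phosphorylates the initiation factor eIF2α, which slows the translation of most mRNAs but favours that of the transcription factor ATF4. The sensor IRE1 splices Xbp1 mRNA so that it codes for an active transcription factor, and ATF6 moves to the Golgi, where it is cut to free its own transcription factor domain. These factors induce chaperones, enzymes that form disulphide bonds and the machinery that sends misfolded proteins out of the ER to the proteasome. A growing oocyte makes large amounts of secreted proteins, such as the zona pellucida glycoproteins. Phosphorylation, splicing and cleavage of the sensors and their products were not measured, and every value below is a transcript level summed over the exons of a gene.

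The table held 1 pooled value per gene and condition, so that no value of a single library, SD, test or p-value can be given, and every difference below is a description of the 2 pooled columns. Although the values are named as RPKM, they are RPM, reads scaled to the total depth of the column, with no correction for gene length, because in each column 99.98% of them, with a tolerance of 0.1 read, were a whole number of reads at a single RPM per read. From that step, the columns rest on 132185259 reads for IV 5% O2 and 40875358 reads for IV 20% O2, a ratio of 3.23. Differences are IV 5% O2 minus IV 20% O2 on log2(RPM + 1), which understates the change of low genes. Bracketed intervals are exact 95% Clopper-Pearson intervals of the log2 ratio of RPM, and they cover counting error only, not the spread between libraries or cultures. A gene was called higher or lower when the columns differed by at least 2-fold on that scale.

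Markers of oocytes were present in both columns. All 12 markers listed, among them Gdf9, Zp3 and Nobox, were found at 28.3 to 3807 RPM. Their summed level was 10235 RPM in IV 5% O2, against 13748 RPM in IV 20% O2, 11 of the 12 were below the median gene, and Zp2 (-1.31) and Zp3 (-1.12) were at least 2-fold lower in IV 5% O2. Markers of theca and stroma cells were far lower but uneven, with 10 of 18 in the table at a summed level of 45.3 RPM in IV 5% O2 against 5.48 RPM in IV 20% O2. Of these, Cyp11a1 was at 16.4 and 0.122 RPM in IV 5% O2 and IV 20% O2, Hsd3b1 at 5.96 and 0.489, Postn at 5.25 and 0.367, Star at 5.18 and 1.86, Fn1 at 4.94 and 2.30, Vim at 2.72 and 0 and Dcn at 2.43 and 0, and Col1a2 was also at 0 in IV 20% O2. The summed level of granulosa markers, 6 of 11 in the table, was 41.3 and 29.8 RPM, mostly from Nr5a2, Kitl, Cyp19a1 and Inhba, with Fshr at 0 in IV 5% O2 and Inha at 0 in IV 20% O2. That of macrophage markers, 4 of 8, was 24.9 and 22.6 RPM (Csf1r, Cd68, C1qb and Lyz2, the last at 0 in IV 20% O2), and that of endothelial markers, 3 of 5, was 61.0 and 36.1 RPM (Pecam1, Tek and Kdr, the last at 0 in IV 20% O2). Of 5 erythroid markers only Alas2 was in the table, at 1.32 and 1.57 RPM. The genes of the unfolded protein response are active in most cell types, and the part of such cells in the differences below was not tested. In pooled RNA, a lower level per cell and fewer cells that carry a transcript cannot be told apart.

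Promoter sequences show which of these genes carry the DNA elements through which the pathway is known to act. RefSeq promoters of GRCm38.p6, from 250 bases before to 50 bases after the transcription start, were available for 28 of the 32 genes, and Atf6, Derl1, Hyou1 and Manf were not matched. Each promoter was searched on both strands for the ER stress response element ERSE, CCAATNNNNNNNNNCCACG, which is known to be bound by ATF6 and XBP1 together with NF-Y. It was also searched for ERSE-II, ATTGGNCCACG, for the unfolded protein response element UPRE, TGACGTGG, and for the C/EBP-ATF element CARE, TGATGNAA, to which ATF4 is known to bind. ERSE and ERSE-II share the letters CCACG and those of CCAAT on the opposite strand.

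ERSE was found in the promoters of 10 of the 28 genes (35.7%), against 39 of all 32851 promoters (0.119%). The first share counts genes and the second counts promoters. Counted by gene, 22 tested genes carried ERSE and 10879 tested genes with a promoter did not. The genes were chosen by name as members of the pathway, and ERSE is known to act in it. The contrast was therefore built into the choice and is no test of enrichment. The carriers among the 28 were the chaperones Hspa5, Hsp90b1, Dnajc3, Creld2, Calr and Canx, the disulphide enzymes Pdia6 and Ero1lb, and Syvn1 and Derl3 of ER-associated degradation. Hsp90b1 held 2 copies. The sites of the carriers that the results turn on are printed along the strand of the gene, with the ERSE letters, or their reverse complement, in capitals.
Hspa5, chr2:34772020-34772049, + strand: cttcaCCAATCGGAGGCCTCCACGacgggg
Calr, chr8:84847069-84847098, - strand: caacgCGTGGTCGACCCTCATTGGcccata
Creld2, chr15:88819515-88819544, + strand: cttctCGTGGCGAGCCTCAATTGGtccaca
Dnajc3, chr14:118937822-118937851, + strand: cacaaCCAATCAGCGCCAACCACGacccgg
Pdia6, chr12:17266486-17266515, + strand: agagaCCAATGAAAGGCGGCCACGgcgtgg
Syvn1, chr19:6046527-6046556, + strand: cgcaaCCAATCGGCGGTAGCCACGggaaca
The site of Syvn1 began at position -44 from the transcription start and that of Hspa5 at -65, those of Pdia6 and Dnajc3 at -98 and -105, and those of Creld2 and Calr at -126 and -162.

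CARE was found in 4 of the 28 genes (14.3%), against 1304 of all promoters (3.97%). ERSE-II was found in Herpud1 alone of the 28, against 12 of all promoters (0.0365%), and UPRE, held by 222 of all promoters (0.676%), was in none of the 28 windows. These contrasts are likewise no test of enrichment, since these elements were also chosen as known parts of the pathway. The CARE sites, which all lay in reverse orientation, and the ERSE-II site are printed in the same way because all their carriers were lower in IV 5% O2, as given below.
Chac1 CARE, chr2:119351038-119351067, + strand: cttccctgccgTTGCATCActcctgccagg
Trib3 CARE, chr2:152344028-152344057, - strand: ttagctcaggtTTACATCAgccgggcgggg
Atf3 CARE, chr1:191183425-191183454, - strand: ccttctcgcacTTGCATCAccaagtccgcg
Herpud1 CARE, chr8:94386306-94386335, + strand: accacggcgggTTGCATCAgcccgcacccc
Herpud1 ERSE-II, chr8:94386368-94386397, + strand: cgggcgctgATTGGGCCACGttggacactg
Those of Chac1, Herpud1 and Atf3 began at positions -193, -112 and -110, and that of Trib3 lay 15 bases after the start. A match of letters is not evidence of binding in these oocytes.

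Transcripts of all 32 genes were detected in both conditions, and all 32 passed the filter of a mean of at least 1 RPM, which 14704 genes passed. Their levels ran from 12.2 to 666 RPM, with between 504 and 88057 reads behind each value, and 30 of the 32 were above the median level of the tested genes in each column (18.2 RPM in IV 5% O2, against 16.3 RPM in IV 20% O2). Per kb of exon, Calr was highest in IV 5% O2 at 159.8 RPM per kb, followed by Creld2 at 129 and Atf4 at 123. In IV 20% O2, Atf4 was highest at 139 RPM per kb, followed by Hspa5 at 93.3 and Calr at 84.8. Ero1l was lowest in both, at 2.32 and 2.33 RPM per kb. Ern1 had the highest RPM in both columns but only rank 5 in each per kb, given its length of 8173 exonic bases.

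**Figure D1:**
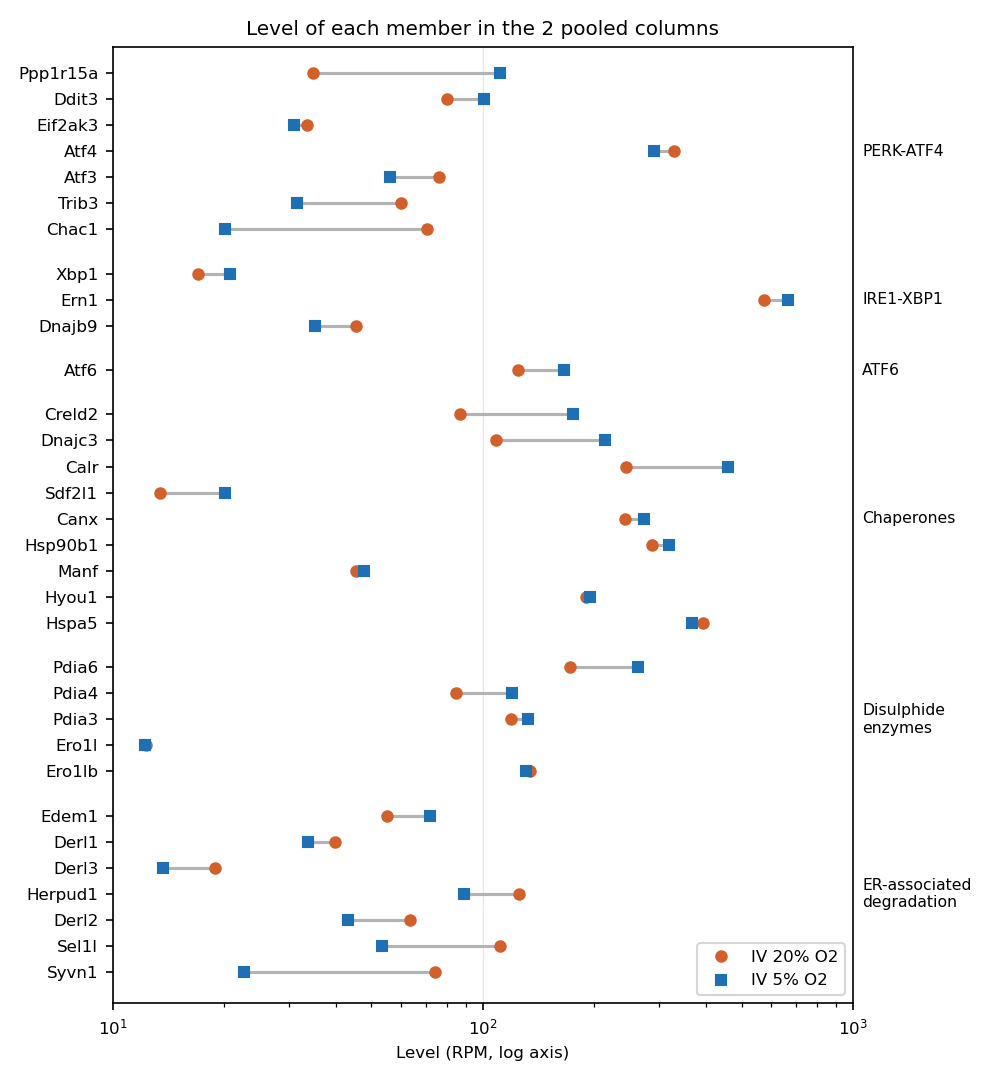
Level of each of the 32 genes in RPM on a log axis, with 1 square for the pooled IV 5% O2 column and 1 circle for the pooled IV 20% O2 column, joined by a line and grouped by role. The longest lines are those of Ppp1r15a (111 and 34.6 RPM), Chac1 (20.1 and 70.6 RPM) and Syvn1 (22.7 and 74.4 RPM), whereas the symbols of Ero1l, Ero1lb, Hyou1 and Manf nearly coincide.

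The 32 genes did not move together. Ppp1r15a and Creld2 were at least 2-fold higher in IV 5% O2, which is 6.25% of the 32 against 18.7% of all tested genes. Chac1, Syvn1 and Sel1l were at least 2-fold lower, which is 9.38% against 9.22% of all tested genes. The first share was below that of all genes and the second was close to it. The median difference of the 32 genes was 0.05, with 17 above 0 and 15 below, whereas the median over all tested genes was 0.26. Relative to that median gene, 21 of the 32 were lower and 11 higher. Most differences were small, since 20 of the 32 (62.5%) lay within 0.5 of 0 on the log2 scale, against 42.3% of all tested genes. Across the 32 genes, which are not independent replicates, the Pearson correlation of the columns was 0.889, and across all tested genes it was 0.884.

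**Figure D2:**
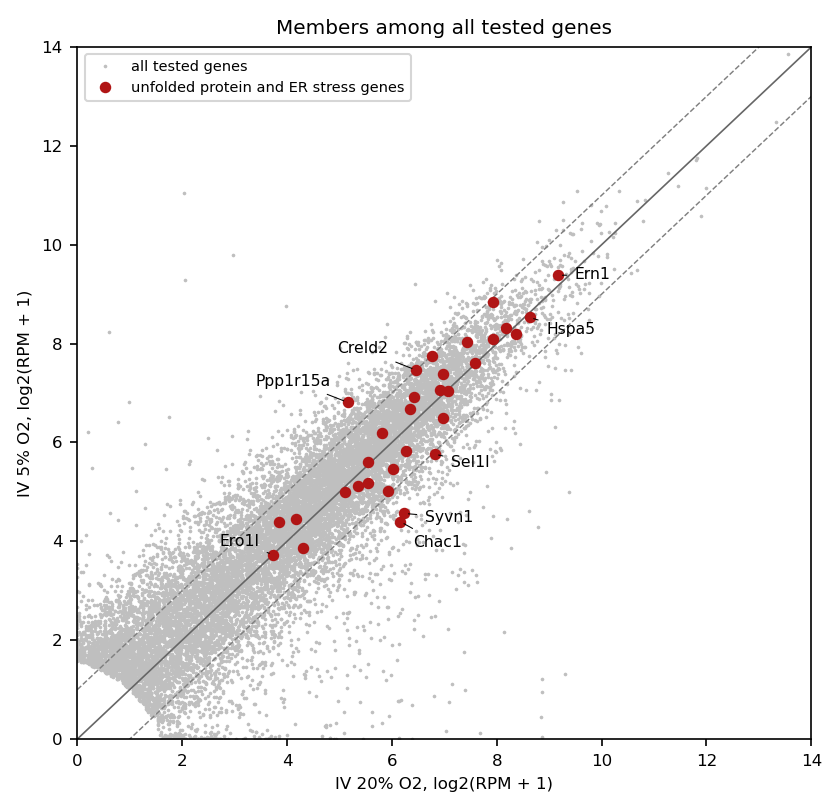
Each grey point is 1 of the 14704 tested genes and each red point 1 of the 32 unfolded protein and ER stress genes, plotted as log2(RPM + 1) in IV 20% O2 on the x axis and in IV 5% O2 on the y axis. The solid line marks equal values and the dashed lines a 2-fold difference, beyond which Ppp1r15a and Creld2 lie on the IV 5% O2 side and Chac1, Syvn1 and Sel1l on the IV 20% O2 side.

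Within the PERK-ATF4 arm, the sensor and the transcription factors each differed by less than 0.5 as deposited, whereas genes downstream of ATF4 lay at both extremes of the 32. The median difference of the 7 genes was -0.18. Of the 7, 1 was called higher and 1 lower (14.3% each), against 18.7% and 9.22% of all tested genes. After either rescaling described below, 1 was higher and 2 were lower. All tested genes then had 12.0% higher and 13.6% lower after median-ratio scaling, and 12.2% and 12.5% after quantile normalization. Eif2ak3, which codes for PERK, was at 30.8 RPM in IV 5% O2, against 33.5 RPM in IV 20% O2, a difference of -0.12 [-0.21 to -0.03]. Atf4, whose protein is the main transcription factor of the arm, was abundant at 290 and 328 RPM, a difference of -0.18 [-0.21 to -0.15]. Both were slightly lower in IV 5% O2 as deposited. After median-ratio scaling and quantile normalization, Eif2ak3 was at -0.43 and -0.28 and Atf4 at -0.50 and -0.41. Ddit3 codes for CHOP, a transcription factor associated with cell death under prolonged stress, and was at 100.6 and 80.0 RPM, a difference of 0.33 [0.28 to 0.39] that was near that of the median gene. Atf3, another stress-induced transcription factor, was at 56.1 and 76.1 RPM, a difference of -0.43 [-0.50 to -0.38] that was -0.75 and -0.64 after these rescalings.

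Ppp1r15a codes for GADD34, the stress-induced subunit that directs a phosphatase to eIF2α and so restores translation. It was at 111 RPM in IV 5% O2 (14726 reads) and at 34.6 RPM in IV 20% O2 (1416 reads), and was 3.22 times as high in IV 5% O2. Its difference of 1.66 [1.61 to 1.76] was the highest of the 32, and 5.49% of all tested genes had a higher one. Chac1, which codes for an enzyme that degrades glutathione, was at the other end. It was at 20.1 RPM in IV 5% O2 (2655 reads) and at 70.6 RPM in IV 20% O2 (2884 reads), and was 3.51 times as high in IV 20% O2. Its difference of -1.76 [-1.89 to -1.74] was the lowest of the 32, and 3.48% of all tested genes had a lower one. Trib3, a pseudokinase induced by ATF4 and CHOP, was at 31.4 and 59.9 RPM, a difference of -0.91 [-1.01 to -0.86] that was just short of 2-fold. The level of Ppp1r15a per kb was 3.09 times that of Chac1 in IV 5% O2 and 0.274 times in IV 20% O2. Against Trib3 it was 2.57 and 0.418 times, so that the order of these genes by level was opposite in the 2 columns.

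The genes of the IRE1-XBP1 arm and Atf6 were not called in either direction. Ern1, which codes for the IRE1 sensor, had the most reads of the 32 genes, with 88057 in IV 5% O2 (666 RPM) and 23561 in IV 20% O2 (576 RPM). Its difference was 0.21 [0.19 to 0.23]. Xbp1, the transcript that IRE1 splices, was at 20.8 and 17.0 RPM, just above the median level of tested genes in each column, a difference of 0.27 [0.17 to 0.41]. Per kb, the level of Ern1 was 12.7 times that of Xbp1 in IV 5% O2 and 13.5 times in IV 20% O2. It was also 15.9 and 12.7 times that of Eif2ak3, and 4.54 and 5.25 times that of Atf6, so that transcripts of IRE1 were the most abundant of the sensors in both conditions. Dnajb9, an ER co-chaperone and target of XBP1, was at 35.2 and 45.4 RPM, a difference of -0.36 [-0.44 to -0.29] opposite in sign to those of Ern1 and Xbp1 as deposited, but not after median-ratio scaling. Atf6 was at 166 and 124 RPM, a difference of 0.41 [0.37 to 0.46].

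The ER chaperones were mostly level or somewhat higher in IV 5% O2 as deposited, with 8 of 9 above 0 (4 of 9 after either rescaling described below). Of the 9, 1 was called higher (11.1%, against 18.7% of all tested genes). Their median was 0.17, which is below the median gene. Their summed level was 2071 RPM in IV 5% O2, against 1612 RPM in IV 20% O2. Several of them differed little as deposited. Hspa5, which codes for BiP, was at 368 and 395 RPM, a difference of -0.10 [-0.13 to -0.07]. After median-ratio scaling and quantile normalization, that of Hspa5 was -0.42 and -0.31. Hsp90b1, which codes for the chaperone GRP94, was at 318 and 287 RPM, a difference of 0.15 [0.12 to 0.18]. Hyou1, an ER chaperone that acts with BiP, was at 195 and 189.8 RPM, a difference of 0.04, and Manf, a small secreted ER stress protein, was at 47.8 and 45.4 RPM, a difference of 0.07. The counting intervals of both included 0. Canx, which codes for calnexin, a membrane-bound lectin chaperone of glycoproteins, was at 273 and 243 RPM, a difference of 0.17 [0.14 to 0.20].

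The other chaperones had larger differences, all on the IV 5% O2 side. Creld2, an ER protein that acts on disulphide bonds, was at 176 and 87.0 RPM and so 2.02 times as high in IV 5% O2, a difference of 1.01 [0.96 to 1.07]. The lower bound of that interval was under 2-fold, and 18.6% of all tested genes had a higher difference. Dnajc3, a co-chaperone of BiP that also inhibits PERK, lay just inside 2-fold, at 213 and 108 RPM with a difference of 0.97 [0.93 to 1.02]. Calr codes for calreticulin, the soluble partner of calnexin, and was at 460 and 244 RPM, a difference of 0.91 [0.88 to 0.95]. The level of Calr per kb was 2.74 times that of Canx in IV 5% O2 and 1.64 times in IV 20% O2. Sdf2l1, an ER protein found in chaperone complexes, was low at 20.1 and 13.4 RPM, a difference of 0.55 [0.45 to 0.72].

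Of the enzymes of disulphide bond formation, none was called, and the median of the 5 was 0.15. The protein disulphide isomerases were all above 0 as deposited, and Pdia3 was below 0 after either rescaling. Pdia6 was at 262 and 172 RPM, a difference of 0.60 [0.57 to 0.64]. Pdia4 was at 120 and 84.6 RPM, a difference of 0.50 [0.45 to 0.56], and Pdia3, which acts on glycoproteins with calnexin and calreticulin, was at 133 and 119 RPM, a difference of 0.15 [0.11 to 0.20]. The oxidases that recharge these isomerases differed by less than counting error as deposited. Ero1l was at 12.2 RPM in IV 5% O2, against 12.3 RPM in IV 20% O2, a difference of -0.01 [-0.15 to 0.14]. Ero1lb was at 130 and 134 RPM, a difference of -0.04 [-0.08 to 0.0043]. After median-ratio scaling and quantile normalization, Ero1l was at -0.30 and -0.15 and Ero1lb at -0.36 and -0.25. Their share of exonic 100-base windows that occur elsewhere in the genome was high, at 42.7% for Ero1l and 17.0% for Ero1lb, so that their levels are less certain than those of the other 30 genes, for which it was at most 5.84%.

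The genes of ER-associated degradation, which recognise misfolded proteins, carry them out of the ER and tag them with ubiquitin, were lower in IV 5% O2 in 6 of 7 cases, also after either rescaling. Their median difference was -0.49, with 2 called lower (28.6%, against 9.22% of all tested genes), and their summed level was 327 RPM in IV 5% O2, against 488 RPM in IV 20% O2. The 2 called genes code for partners in the same complex. Syvn1, which codes for the ubiquitin ligase HRD1, was at 22.7 RPM in IV 5% O2 (2995 reads) and at 74.4 RPM in IV 20% O2 (3040 reads), and so was 3.28 times as high in IV 20% O2. Its difference of -1.67 [-1.79 to -1.64] was exceeded by 3.80% of tested genes on that side. Sel1l, the adaptor of HRD1, was at 53.3 RPM (7052 reads) and 112 RPM (4559 reads), a difference of -1.05 [-1.12 to -1.01]. Both intervals lay beyond 2-fold, but Sel1l was within 2-fold with a pseudocount of 5 RPM, at -0.998, and after division by exonic length, at -0.96. Division by length leaves the RPM ratio unchanged, and the difference shrank because the 1 added afterwards weighs more against RPM per kb.

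The remaining genes of the group were less far apart. Herpud1, a membrane protein that joins the HRD1 complex and a carrier of both ERSE-II and CARE, was at 88.9 and 125 RPM, a difference of -0.49 [-0.54 to -0.44]. The derlins are membrane proteins that take part in the export of misfolded proteins. Derl2 was at 43.2 and 63.7 RPM with a difference of -0.55 [-0.63 to -0.49], Derl3 at 13.7 and 18.9 RPM with a difference of -0.44 [-0.59 to -0.34], and Derl1 at 33.7 and 39.8 RPM with a difference of -0.23 [-0.32 to -0.16]. Edem1, which acts on the mannose residues of misfolded glycoproteins, was the exception at 71.9 and 55.2 RPM, a difference of 0.38 [0.32 to 0.45]. Per kb, Sel1l was thus below Edem1 in IV 5% O2, at 0.560 times its level, and above it in IV 20% O2, at 1.52 times.

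**Figure D3:**
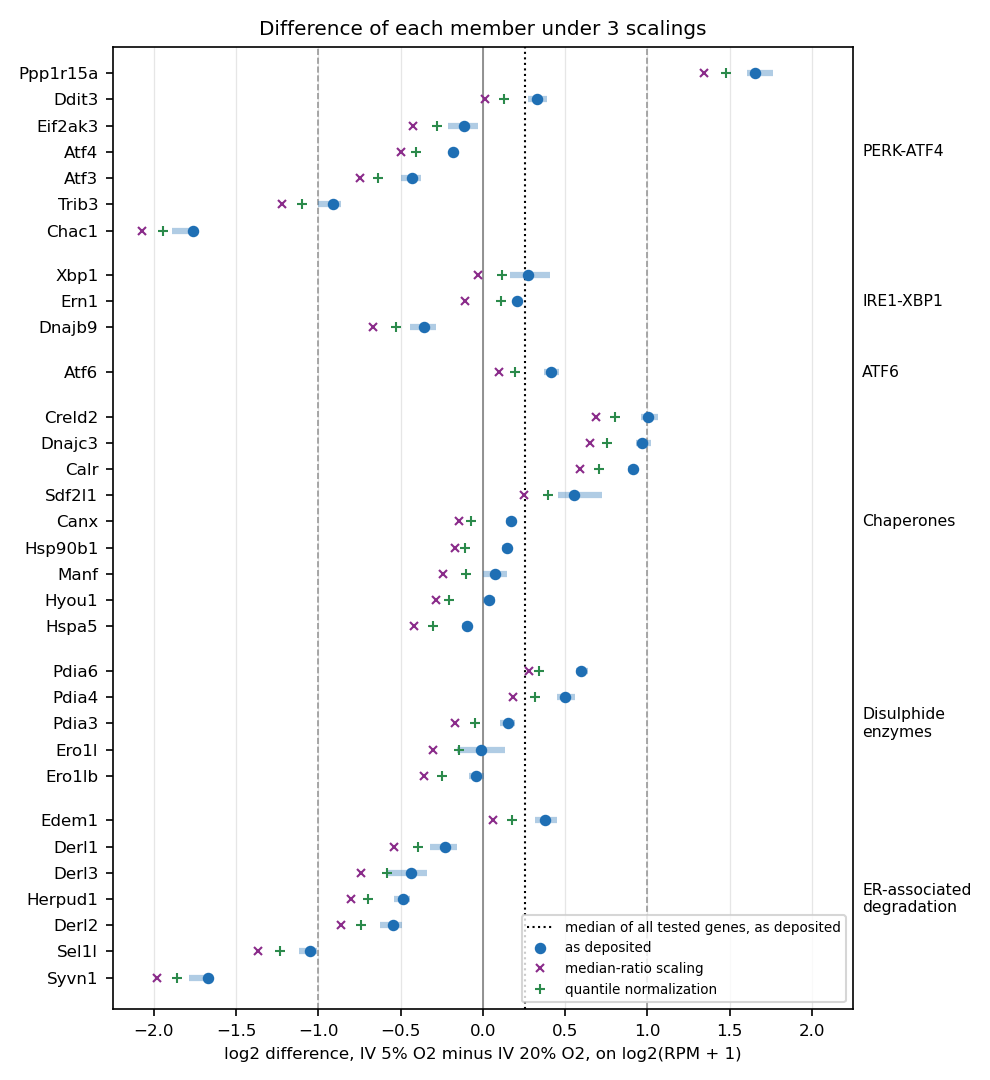
Difference of each of the 32 genes on log2(RPM + 1), IV 5% O2 minus IV 20% O2, as deposited (circles), after median-ratio scaling (crosses) and after quantile normalization (plus signs), grouped by role. Pale bars are the 95% counting intervals of the deposited RPM ratio, dashed lines mark 2-fold and the dotted line the median of all tested genes, 0.26. Both rescalings move most genes to the left, and 6 of 7 ER-associated degradation genes stay left of 0 under each.

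The sign of the small differences depended on the scaling of the columns. The median of all tested genes was 0.26 as deposited, -0.03 after median-ratio scaling, which assumes that most genes are level, and 0.06 after quantile normalization. The share of higher genes among all called fell from 67.0% to 46.7% and 49.6%. After median-ratio scaling, 1 of the 32 genes was called higher, against 12.0% of all tested genes, and 4 were called lower, against 13.6%. After quantile normalization the counts were also 1 and 4, against 12.2% and 12.5%. Ppp1r15a was the gene called higher in each case, at 1.34 and 1.48, and Creld2 was not, at 0.69 and 0.80. Chac1 was called lower at -2.07 and -1.95, Syvn1 at -1.98 and -1.86 and Sel1l at -1.37 and -1.23. Trib3 joined them at -1.22 and -1.10. The sign of Ern1 and Xbp1 turned after median-ratio scaling, to -0.11 and -0.03, and that of Hsp90b1, Hyou1, Manf, Canx and Pdia3 turned under both.

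Genes that carry the same promoter element did not share a direction in the case of ERSE. The 10 carriers of ERSE ranged from -1.67 for Syvn1 to 1.01 for Creld2, with a median of 0.16, and 4 of them were below 0 as deposited. The 4 carriers of CARE, Chac1, Trib3, Herpud1 and Atf3, were all below 0, with a median of -0.70. Among all 336 tested genes with CARE in their promoter, however, the median was 0.31 and 11.0% were called lower, against 0.25 and 8.77% of the 10565 tested genes with a promoter and no CARE.

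The other genes of the pathways were described with lists of 126 genes, of which 120 were in the table and 118 were tested. Of these, 12 were called higher (10.2%, against 18.7% of all tested genes) and 14 lower (11.9%, against 9.22%), with a median of 0.07. After median-ratio scaling 5 were higher and 21 lower, against 12.0% and 13.6% of all tested genes, with a median of -0.24. After quantile normalization 5 were higher and 15 lower, against 12.2% and 12.5%, with a median of -0.11. In the list of further ER membrane sensors and transcription factors, 1 of 11 was called higher (9.09%) and none lower, with a median of 0.67. The called gene was Tmbim6, which codes for an inhibitor of cell death in the ER membrane, at 226 and 96.8 RPM with a difference of 1.21. After median-ratio scaling it was at 0.90, and the list had 0 higher, 1 lower and a median of 0.37, whereas after quantile normalization it stayed at 1.00, with 1 higher, 0 lower and a median of 0.49.

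In the list of the integrated stress response, the wider pathway that meets PERK at eIF2α, 2 of 20 were called higher (10.0%, against 18.7% of all tested genes) and 6 lower (30%, against 9.22%), with a median of 0.12 that was below 0 after either rescaling. Ppp1r15b codes for the constitutive counterpart of GADD34, and was at 59.5 and 162 RPM, a difference of -1.43 opposite to the 1.66 of Ppp1r15a. Psat1, an enzyme of serine synthesis, was at 44.7 and 132 RPM, a difference of -1.55. The other genes called lower were Nupr1, Cebpb, Asns and Aldh18a1, between -1.38 and -1.09. As deposited, 10 genes of the list were above 0 and 10 below. Bbc3, which codes for the cell death protein PUMA, was at 2.46 RPM in IV 5% O2 and had no reads in IV 20% O2, which allows up to 0.0734 RPM, and Tnfrsf10b, a cell death receptor, was at 2.29 and 0.367 RPM. These were the 2 genes called higher, and both passed the filter only through IV 5% O2, as Nupr1, at 0.545 and 3.01 RPM, did only through IV 20% O2. With a pseudocount of 5 RPM, 0 of 20 genes of the list were called higher and 4 lower, against 1202 and 706 of all 14704 tested genes. With the filter at 5 RPM, 0 of 17 were called higher and 5 lower, against 1691 and 917 of 10755.

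In the list of further ER chaperones, lectins and disulphide enzymes, 5 of 29 were called higher (17.2%, close to the 18.7% of all tested genes) and none lower, with a median of 0.24 (-0.07 after median-ratio scaling). After either rescaling 2 were higher, against 12.0% and 12.2% of all tested genes, and 1 was lower after median-ratio scaling, against 13.6%. The largest differences were those of Uggt2, which belongs to the family that tags misfolded glycoproteins for another round of folding, at 32.9 and 8.76 RPM (1.80), and of the lectin chaperone Clgn, at 4.83 and 0.807 RPM (1.69), which passed the filter only through IV 5% O2. In the list of other genes of ER-associated degradation, 3 of 26 were called higher (11.5%, against 18.7% of all tested genes). In that list 1 was lower (3.85%, against 9.22%), and the median was 0.16, against -0.49 for the 7 genes above. After median-ratio scaling 1 was higher and 4 lower, against 12.0% and 13.6% of all tested genes. After quantile normalization 1 was higher and 2 lower, against 12.2% and 12.5%, and the median was below 0 after either rescaling. Ubxn4, an ER membrane protein that recruits the unfolding ATPase VCP, was at 262 and 89.1 RPM (1.55). Erlec1, which codes for an ER lectin that works with SEL1L, was at 4.46 and 16.8 RPM, a difference of -1.70.

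In the list of ER translocation and signal peptide processing, 1 of 32 was called higher (3.13%, against 18.7% of all tested genes). Lower were 7 (21.9%, against 9.22% of all tested genes), with a median of -0.24 and 23 below 0. After median-ratio scaling and quantile normalization, 0 were higher, 9 and 7 were lower, against 13.6% and 12.5% of all tested genes, and the median was -0.55 and -0.45. Srprb, a subunit of the receptor for the signal recognition particle, was at 264 and 126 RPM (1.06), and at 0.74 and 0.83 after these rescalings. Sec61g and Sec61b code for the small subunits of the protein channel of the ER membrane. Sec61g was at 9.06 and 101.7 RPM, a difference of -3.35, and Sec61b at 20.1 and 98.0 RPM, a difference of -2.23. Ost4, a small subunit of the enzyme that attaches sugars to proteins, had a difference of -2.54, which is uncertain because 53.2% of its exons are overlapped by Agbl5 on the opposite strand. The difference of Srp54a was -4.50 and that of its near copy Srp54b was -1.47, but 88.7% and 98.1% of their 100-base windows were repeated in the genome, so that both values are uncertain.

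**Figure D4:**
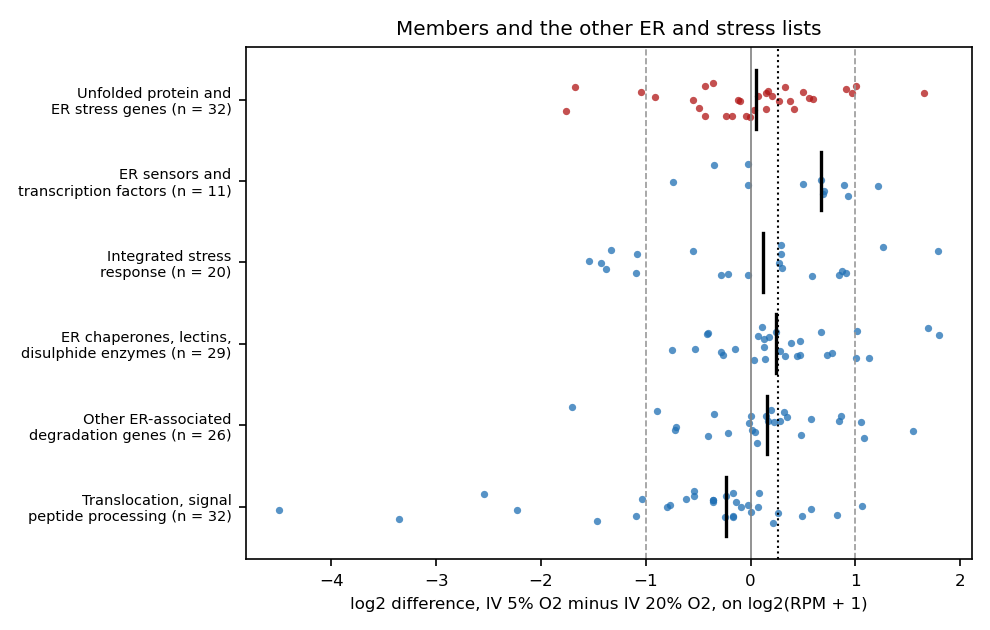
Each point is 1 gene, placed by its difference on log2(RPM + 1), IV 5% O2 minus IV 20% O2, with the 32 unfolded protein and ER stress genes in red and the other lists in blue. Thick bars are list medians, from -0.24 for translocation to 0.67 for sensors and transcription factors, dashed lines mark 2-fold and the dotted line the median of all tested genes, 0.26.

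Properties of the genes that could bear on the values were also compared. Short genes had the lowest differences, with a median of 0.05 over the 933 genes of up to 1000 exonic bases, against 0.22 to 0.33 for genes of 1000 to 8000 bases and 0.16 for longer ones. None of the 32 genes was in the shortest class, and their lengths ran from 1108 bases (Sdf2l1) to 9231 bases (Atf6). The library kit marked strand, but whether the reads were counted by strand is not stated. Exons of other genes on the opposite strand covered 10.3% of the exons of Hsp90b1, 8.85% of Manf, 8.05% of Eif2ak3 and 4.73% of Ddit3, and under 3% of each of the other 28 genes, and of the genes named from the other lists it was 20.7% in Cebpb and 11.4% in Ppp1r15b. Gm20425 overlaps 20.7% of the exons of Srprb on the same strand. For the 5 called genes, this share was at most 1.87%, in Syvn1. Ddit3 had a second row, which covers the shorter interval chr10:127290829-127293753 inside the first, chr10:127290774-127296288. Its values were 8.70 and 1.27 RPM, a difference of 2.09, and the row with the higher mean was used above. The 5 called genes lie at chr7:45522916-45526268 (Ppp1r15a), chr15:88819646-88826683 (Creld2), chr2:119351229-119354381 (Chac1), chr19:6046576-6053712 (Syvn1) and chr12:91806043-91849157 (Sel1l) in GRCm38.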

How the data were processed

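RNA-seq of class IV oocytes from 2 culture conditions was analysed. Per the labels and the methods of the study, the authors trimmed the reads with Trim Galore, aligned them to mm10 (GRCm38) with TopHat2 (2.0.9 in the processing notes), quantified exons with SeqMonk and deposited log2 values in 1 pooled column per condition. The way in which 2 libraries became 1 column is not stated, and the values do not show whether both entered a column. The table also held 1 value column that matched no mapped sample and was not used.

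The log2 was undone, a gene without reads, listed at the value of 0.9 read, was set to 0, and reads were recovered from the value of 1 read. Depth was 132185259 reads in IV 5% O2 and 40875358 in IV 20% O2, of which 109629353 and 29754908 lay on genes, so that the IV 20% O2 column is the less precise. The floor for a gene without reads, 3 reads per column, is 0.0227 and 0.0734 RPM. For the 18 names with several rows the row with the highest mean was used. A difference was taken on log2(RPM + 1) where the mean of the columns reached 1 RPM, and genes at least 2-fold apart were counted. The limma test foreseen for single libraries was not possible on pooled columns. The steps were tested on simulated data.

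The 32 genes and all lists were chosen with earlier results of these data known. Every one of the 32 genes is named, as are, of each other list, the 2 genes with the largest rise and the 2 with the largest fall past 2-fold, and markers of other cell types over 1 RPM. A gene that this rule would name in the list of other ER-associated degradation genes is not reported here. Ost4, Sec61b, Srp54b, Nupr1, Cebpb, Asns and Aldh18a1 were named, and the promoter elements chosen, after values were seen. Exonic length, overlap and repeated windows came from the GENCODE release 21 annotation and the GRCm38 genome. Alternatives were median-ratio scaling, quantile normalization, pseudocounts of 0.1 and 5 RPM, a filter at 5 RPM or none and summed rows for repeated names. Division by exonic length, with 1 added after the division, was an alternative chosen after the data were seen. Computations used Python 3.11.15 with scipy 1.17.1, pandas 2.3.3 and numpy 2.4.6, with numba 0.67.0 for repeated windows and matplotlib 3.10.9 for plots.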

Additional observations from a re-analysis of the deposited data

How the results depend on the processing

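The count of unfolded protein and ER stress genes at least 2-fold lower, 3, was 2 with a pseudocount of 5 RPM and with division by exonic length, both times without Sel1l, and 4 after either rescaling. The count of those at least 2-fold higher went from 2 to 1 with a pseudocount of 5 RPM, after median-ratio scaling and after quantile normalization. Their median of 0.05 turned to -0.26 after median-ratio scaling and to -0.13 after quantile normalization. Over all tested genes, the count of higher genes, 2753, was 1202 with a pseudocount of 5 RPM, 1691 with the filter at 5 RPM, 1758 after median-ratio scaling, 1799 after quantile normalization and 1659 with division by exonic length, an alternative chosen after the data were seen, and that of lower genes, 1356, was 706 with a pseudocount of 5 RPM. After median-ratio scaling the sign turned for Ern1 (-0.11), Xbp1 (-0.0316), Hsp90b1 (-0.17), Hyou1 (-0.28), Manf (-0.24), Canx (-0.15) and Pdia3 (-0.17), and after quantile normalization for Hsp90b1 (-0.11), Hyou1 (-0.21), Manf (-0.10), Canx (-0.0705) and Pdia3 (-0.0472). The median of the integrated stress response list, 0.12, was 0.27 with no filter. It turned to -0.0233 with the filter at 5 RPM, -0.19 after median-ratio scaling and -0.0740 after quantile normalization. The median of the other ER-associated degradation list turned to -0.15 and -0.0290 under these scalings, and that of the chaperone, lectin and disulphide enzyme list to -0.0734 after median-ratio scaling. Median-ratio scaling lowered the difference of every unfolded protein and ER stress gene by a near-constant amount, so that small differences above 0 turned sign. Division by exonic length leaves the RPM ratio of a gene unchanged, and its effect, like that of the pseudocounts, comes from the constant added. Why the columns differ in scale was not tested. No paired analysis was possible because each condition has 1 pooled column that carries no replicate number, and leaving out each replicate was not run for the same reason. Each of the 5 called genes had at least 1416 reads in each column, but counting error alone leaves the 2-fold call of Creld2 undecided, and the spread between libraries and cultures is unknown.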
